A study of Mus musculus with 5 samples.

Results

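A set of 10 genes that mark a developmental and damage-associated state of microglia was followed in the hippocampus of newborn mice: Spp1, Gpnmb, Itgax, Clec7a, Cst7, Lgals3, Fabp5, Cd63, Cd9 and Cd68. They were chosen as a list of 10 genes and looked up by symbol among the 32285 features of the count tables. The tables held 9 of the 10, and Clec7a was not analysed here. Hippocampi came from pups at postnatal day 1 that were either wild type for Trem2 (Trem2 +/+, 3 libraries, numbered 1, 2 and 3) or Trem2 knock-out (Trem2 -/-, 2 libraries, numbered 2 and 3), and each library pooled the cells of 2 mice. Per the sample descriptions, the libraries numbered 2 held 2 males and the others held 1 female and 1 male, while the sex field of the labels gives both sexes for every library. Strain and the design of the Trem2 allele were not given in the sources used here. Cells were dissociated with papain, and the 3' ends of their transcripts were counted as unique molecular identifiers (UMIs).

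Microglia are the resident macrophages of the brain parenchyma, and border macrophages are their relatives in the meninges, choroid plexus and perivascular spaces. Around birth, a subset of microglia in growing white matter and neurogenic zones carries a set of genes that reappears in ageing and neurodegeneration, where the full switch to that state depends on TREM2, a lipid-sensing receptor that signals through TYROBP. The genes cover secreted ligands (Spp1, which encodes osteopontin, and Lgals3, which encodes the sugar-binding galectin-3), surface receptors (Gpnmb, a transmembrane glycoprotein of lysosomes and the surface, Itgax, the integrin chain CD11c, and Clec7a, the beta-glucan receptor dectin-1), the tetraspanins Cd9 and Cd63, the lysosomal glycoprotein Cd68, the fatty acid carrier Fabp5 and the cystatin Cst7, an inhibitor of lysosomal cathepsins.

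On mm10 (GENCODE M21), the members with counts were protein-coding genes, and in the same annotation Clec7a (ENSMUSG00000079293, chr6:129461591-129472779, minus strand) carried the class of a polymorphic pseudogene. Spp1 (ENSMUSG00000029304) lay at chr5:104435118-104441050, Gpnmb (ENSMUSG00000029816) at chr6:49036546-49070929, Itgax (ENSMUSG00000030789) at chr7:128129547-128150657 and Cst7 (ENSMUSG00000068129) at chr2:150570415-150578944, each on the plus strand. Lgals3 (ENSMUSG00000050335) lay at chr14:47367751-47386160, Fabp5 (ENSMUSG00000027533) at chr3:10012548-10016607 and Cd63 (ENSMUSG00000025351) at chr10:128900989-128912822, also on the plus strand. Cd9 (ENSMUSG00000030342, chr6:125460266-125494791) and Cd68 (ENSMUSG00000018774, chr11:69664213-69666153) lay on the minus strand. Cd9 overlapped Gm28809 and Gm26728, both on the other strand, and how reads over the shared bases were assigned was not examined. 

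The 250 bases before the transcription start were searched for 4 motifs on both strands: CATGTG (the M-box core bound by MITF and TFE factors), CACGTG (E-box), GAGGAAGT (PU.1, the lineage factor of macrophages) and TGACTCA (AP-1). RefSeq promoters (GRCm38.p6) matched 8 of the 9 members, and Fabp5 had no entry. A few are shown because they carry the contrast that the results turn on, a gene concentrated in few microglia (Spp1), a gene found in the same cells (Gpnmb) and a gene spread evenly over both macrophage classes (Cd68). Capitals mark a motif match, and each line reads 5′ to 3′ on the gene's strand.
Spp1, chr5:104434861-104435110, plus strand: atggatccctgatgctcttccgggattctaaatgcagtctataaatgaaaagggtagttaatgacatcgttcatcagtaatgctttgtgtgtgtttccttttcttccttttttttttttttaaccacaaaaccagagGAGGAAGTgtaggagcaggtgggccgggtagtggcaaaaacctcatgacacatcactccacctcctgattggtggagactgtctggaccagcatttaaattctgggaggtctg
Gpnmb, chr6:49036268-49036517, plus strand: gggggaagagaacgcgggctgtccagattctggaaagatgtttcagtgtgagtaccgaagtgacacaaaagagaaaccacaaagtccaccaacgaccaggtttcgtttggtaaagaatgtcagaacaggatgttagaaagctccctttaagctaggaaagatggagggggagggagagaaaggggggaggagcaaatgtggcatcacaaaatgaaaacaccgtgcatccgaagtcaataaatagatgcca
Cd68, chr11:69666171-69666420, minus strand: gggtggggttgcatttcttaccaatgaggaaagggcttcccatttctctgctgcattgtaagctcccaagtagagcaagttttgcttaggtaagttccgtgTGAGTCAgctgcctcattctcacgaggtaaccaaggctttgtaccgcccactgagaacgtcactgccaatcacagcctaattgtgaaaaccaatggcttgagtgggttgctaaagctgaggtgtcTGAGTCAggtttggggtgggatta
The Spp1 window held 1 PU.1 match, 113 bases before the start, and the window of its second RefSeq start held none of the 4 motifs. The Cd68 window held 2 AP-1 matches, 149 and 24 bases before the start. Itgax had an AP-1 match at 56 bases and Cd9 an M-box core at 38 bases, while the windows of Gpnmb, Cst7, Lgals3 and Cd63 held none of these letters. The windows of Lgals3 (chr14:47373610-47373859) and Cd63 (chr10:128909095-128909344) precede RefSeq starts that lie inside the gene spans given above. The bases before the GENCODE starts of these genes were not searched. Over 32851 RefSeq promoters of this length, 12.3% held the M-box core, 6.02% the E-box, 2.44% the PU.1 site and 4.46% the AP-1 site. A match describes the sequence and not binding.

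The 5 libraries held 6512 to 10582 cell barcodes and 60024793 to 91205882 UMIs, and 4470 to 8092 cells per library passed the filters. Any 2 libraries shared 6 to 17 barcodes. Cell types were rebuilt by clustering with the members left out and were named from other marker genes, so that "microglia" below means microglia-like cells and likewise for every class. Microglia numbered 97, 49 and 21 in wild-type replicates 1, 2 and 3 and 36 and 12 in knockout replicates 2 and 3, 215 in all. Border macrophages numbered 52, 25 and 22 against 27 and 8, 134 in all. All 12 microglial markers were detected in the microglia of every library (7228 to 10419 in CPM, UMIs scaled to a common class total, summed), and the markers of neutrophils and of T or NK cells were at 0. Some markers of border macrophages and monocytes were not, among them Mrc1 and Ms4a6c. A separate cluster of 128 cells with microglial genes and little RNA (median 2009.5 UMIs per cell, against 10746 in microglia) was kept apart. Trem2 in microglia was at 1473, 1579 and 1334 CPM in the wild type, and at 63.7 and 69.7 CPM in the knockout (log2 fold change -4.42, SE 0.29, adjusted p = 3.32e-05 by edgeR's quasi-likelihood test), as the labels state. In border macrophages Trem2 was at 264, 254 and 332 CPM, against 12.7 and 50 CPM.

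Microglia carried Spp1, Gpnmb and Itgax at their highest mean levels among the 14 classes described. Spp1 averaged 4794 ± 2806 CPM (SD, n = 5 libraries) in microglia, 1064 ± 1334 CPM in the low-RNA microglial cluster, 49.0 ± 57.7 CPM in border macrophages and 34.3 ± 33.1 CPM in fibroblasts, and every other class averaged 1.95 CPM or less. The microglial value was not above that of the low-RNA cluster in every library. Gpnmb averaged 106 ± 85.3 CPM in microglia and was higher there than in the next class, the low-RNA cluster at 2.77 ± 6.20 CPM, in all 5 libraries. Itgax averaged 15.4 ± 11.4 CPM in microglia and was at 0 in border macrophages. Cst7 averaged 36.8 ± 25.7 CPM in the low-RNA cluster and 13.3 ± 2.58 CPM in microglia, an order that held in all 5 libraries. That order rests on very few UMIs, since the low-RNA cluster held only 45763 to 72101 UMIs of all genes per library. The lowest Cst7 value there was 20.8 CPM. The next class for Cst7, Cajal-Retzius neurons, averaged 0.26 CPM.

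Of the other members, all but Cd68 were shared with non-immune cells. Lgals3 was higher in ependymal cells, the ciliated lining of the ventricles, at 208 ± 34.2 CPM than in microglia at 109 ± 40.6 CPM, in every library. Fabp5 was highest in radial glia and astrocytes at 3995 ± 413 CPM, followed by choroid plexus epithelium at 3422 ± 600 CPM and Cajal-Retzius neurons at 3018 ± 196 CPM, with the first 2 not separated in every library. Cd63 averaged 1342 ± 141 CPM in fibroblasts and 1142 ± 229 CPM in microglia, which overlapped. Cd9 averaged 1096 ± 272 CPM in microglia, 1088 ± 105 CPM in radial glia and astrocytes and 927 ± 167 CPM in choroid plexus epithelium, so its first 2 classes did not differ beyond their spread. Cd68 averaged 416 ± 73.0 CPM in border macrophages, 383 ± 44.3 CPM in microglia and 300 ± 115 CPM in the low-RNA cluster, and the next class, endothelial cells, was at 5.53 ± 2.31 CPM.

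**Figure D1:**
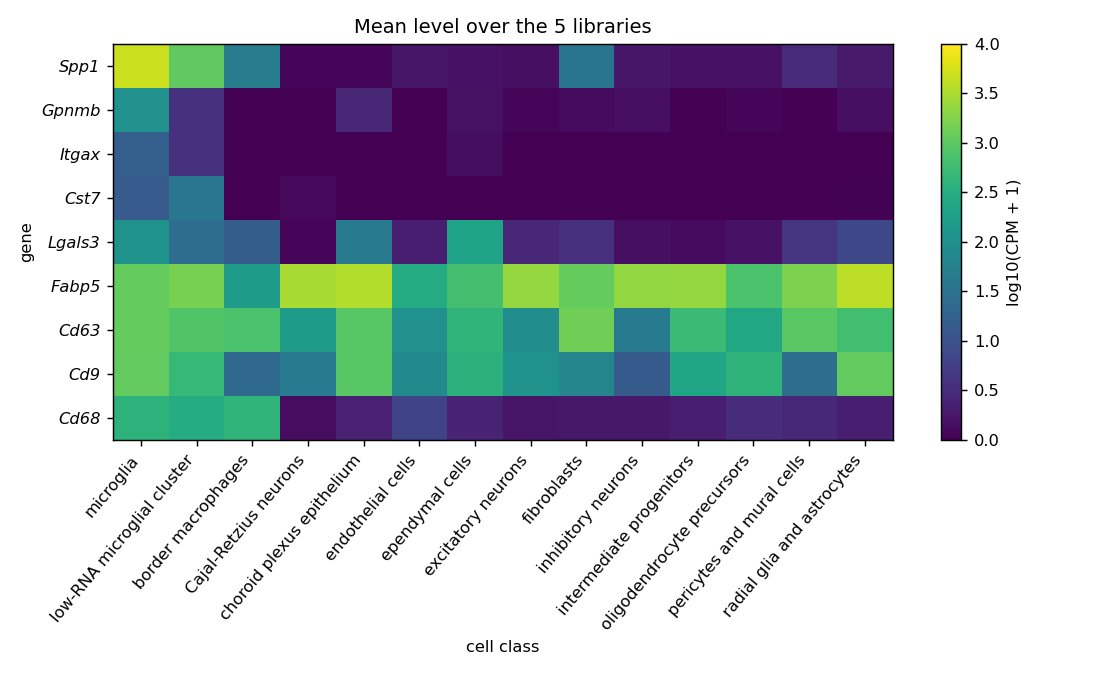
Heat map of the mean level over 5 libraries, as log10(CPM + 1), with members in rows and cell classes in columns. Spp1 and Gpnmb are brightest in microglia, Lgals3 in ependymal cells, Fabp5 in radial glia and astrocytes (3995 CPM), and Cd68 in the macrophage classes.

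The share of microglia with at least 1 UMI divided the members. Unthinned, 96.7% of microglia had Cd63, 95.3% Cd9, 90.2% Cd68 and 87.9% Fabp5, against 36.3% for Spp1, 20.9% for Lgals3, 17.7% for Gpnmb, 13% for Itgax and 11.6% for Cst7. In excitatory neurons, which should lack most of these genes and had a similar depth (median 9536 against 10746 UMIs per cell), the shares were 0.474% for Spp1, 0.161% for Gpnmb, 0.0101% for Itgax, 2.06% for Lgals3 and 0.847% for Cd68, and no cell had Cst7. Cd63 was found in 56.3%, Cd9 in 57.2% and Fabp5 in 99.3% of excitatory neurons, so a UMI of these 3 does not set microglia apart. With every cell thinned to 1000 UMIs, the microglial shares were 25.6% for Spp1, 6.51% for Gpnmb, 6.05% for Lgals3, 40.0% for Fabp5, 60.5% for Cd63, 50.7% for Cd9, 30.7% for Cd68 and 0.930% for both Itgax and Cst7. Thinned in the same way, excitatory neurons had 0.0403% for Spp1, 0.0101% for Gpnmb, 0.171% for Lgals3, 88.2% for Fabp5, 10.4% for Cd63, 11.2% for Cd9 and 0.0706% for Cd68.

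Border macrophages carried the lysosomal members Cd63 and Cd68, while several others were at or near 0. Gpnmb, Itgax and Cst7 had 0 UMIs in all 134 cells, which allows up to 2.85 CPM at 3 counts of the class total. Cd63 was found in 97.0% and Cd68 in 90.3% of border macrophages, close to the microglial shares of 96.7% and 90.2%. Cd9 was found in 14.2% of border macrophages against 95.3% of microglia, Fabp5 in 59.7% against 87.9% and Spp1 in 5.22% against 36.3%, at median depths of 7697 and 10746 UMIs per cell. The members took up 0.820% of all UMIs in microglia and 0.133% in border macrophages.

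Within microglia, Spp1 was held by few cells. The median microglial cell had 0 Spp1 UMIs, and the 22 cells with the most Spp1 held 87.2% of its UMIs. The same number of cells held 87.3% of Gpnmb, 84.0% of Lgals3 and 61.3% of Fabp5 UMIs but 40.6% of Cd9, 28.4% of Cd63 and 27.5% of Cd68. Cells with 10 or more Spp1 UMIs numbered 18, 16 and 1 per wild-type library, against 14 and 3 per knockout library. The single highest Spp1 cell carried 542, 661 and 365 UMIs in the wild type and 1231 and 772 in the knockout, which was 26.3%, 23.4% and 99.2% against 28.0% and 88.0% of the library's microglial Spp1. In wild-type replicate 3 and knockout replicate 3 the Spp1 level therefore rested mostly on 1 cell.

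Several of the members that were concentrated occurred together. After thinning, Gpnmb was found in 23.6% of the 55 microglia with Spp1 and in 0.625% of the 160 without it. Lgals3 was found in 21.8% and 0.625%, Fabp5 in 72.7% and 28.8%, and Cd9 in 76.4% and 41.9% of the same cells. Cd68 did not follow this pattern, at 30.9% and 30.6%. Itgax and Cst7 were also concentrated, at low counts, with 85% and 90.6% of their UMIs in 22 cells. Each was found in 3.64% of the microglia with Spp1 and 0% of those without it. Over cells, without thinning, their Pearson r with Spp1 was 0.30 and 0.022, against 0.69 for Gpnmb and 0.62 for Lgals3. Among the 14 microglia with Gpnmb, 50% had Lgals3. Unthinned, 4 members were detected in 76 of the 215 cells (35.3%), which was the commonest number, 7 in 22 cells, 8 in 12 cells and all 9 in 3 cells. These are descriptions of cells that share libraries and differ in depth, and no test was made on them.

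**Figure D2:**
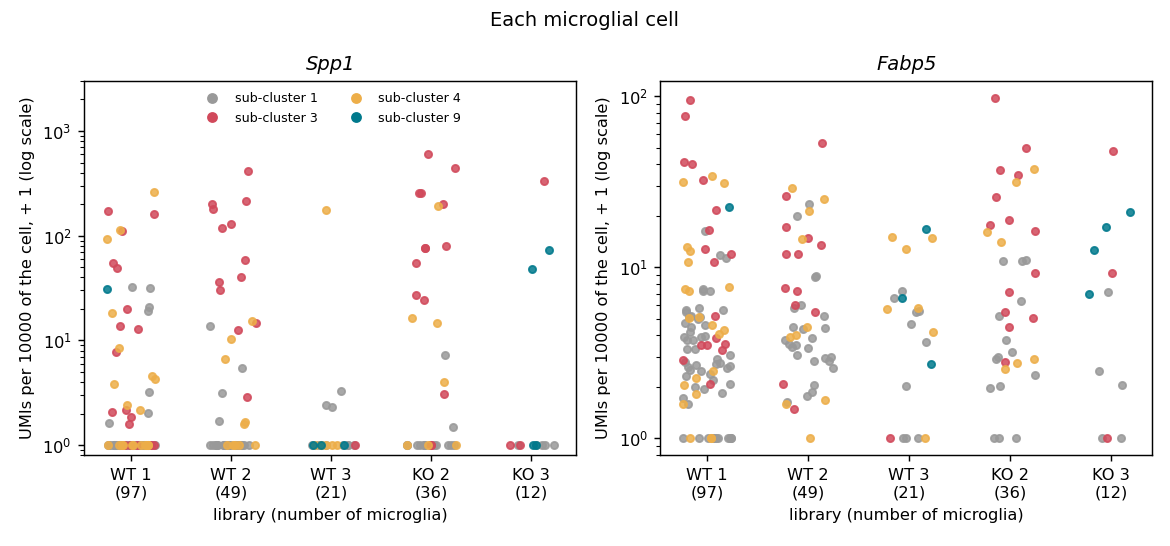
Each microglial cell as 1 point, by library, with Spp1 on the left and Fabp5 on the right (UMIs per 10000 of the cell, plus 1, log scale), coloured by sub-cluster. Most cells lie at the bottom for Spp1, with a median of 0, and the high points are few in every library.

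Clustering of the macrophages without the members split microglia into 4 sub-clusters, numbered 1, 3, 4 and 9. Sub-cluster 3 (49 cells, median 15436 UMIs per cell) had the highest levels of 8 of the 9 members, all but Cst7, in sums over libraries that pool both genotypes. By library, Spp1 in sub-cluster 3 was at 3790, 11373 and 0 CPM in the wild type and 17324 and 20616 CPM in the knockout, and wild-type replicate 3 had 1 cell there. In that library the order turned, with the members at 0.137% of UMIs in sub-cluster 3 and 1.04% in sub-cluster 4. Summed, Spp1 was at 11249 CPM in sub-cluster 3, against 136 CPM in sub-cluster 1 (112 cells, median 9568 UMIs) and 3141 CPM in sub-cluster 4 (46 cells, which carried the division genes Mki67 at 699 and Top2a at 742 CPM). Gpnmb was at 320, 3.82 and 70.6 CPM and Lgals3 at 233, 9.55 and 104 CPM in sub-clusters 3, 1 and 4. Fabp5 was at 2108, 321 and 1155 CPM and Cd9 at 1726, 613 and 1166 CPM in that order. Cd63 differed less, at 1581, 1024 and 999 CPM, as did Cd68, at 498, 389 and 359 CPM. Cst7 was flat, at 12.3, 12.4 and 14.4 CPM. Sub-cluster 9 (8 cells) had Fabp5 at 1437 CPM. It had the radial glia marker Fabp7 at 860 CPM, against 130, 87.9 and 114 CPM in sub-clusters 3, 1 and 4. It held 3 of the 21 microglia of wild-type replicate 3 and 4 of the 12 of knockout replicate 3. In the latter it held 80 of the 200 microglial Fabp5 UMIs, and its part in the genotype values was not tested.

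Companion genes from the other lists differed between sub-clusters as well. Igf1, a growth factor made by microglia in early white matter, was at 595 CPM in sub-cluster 3 and 147 CPM in sub-cluster 1, the lipase Lpl at 940 and 333 CPM, the galectin Lgals1 at 550 and 41.1 CPM, Apoe at 15820 and 12583 CPM and the cathepsin Ctsl at 6321 and 2879 CPM. On the same list, Cd83 was lower in sub-cluster 3, at 142 and 403 CPM, as was Hmox1 at 135 and 166 CPM, and Csf1 was level at 213 and 213 CPM. The homeostatic receptor P2ry12 ran the other way, at 277 and 920 CPM, as did Tmem119 at 23.2 and 140 CPM. Several border macrophage markers were higher in sub-cluster 3 than in sub-cluster 1, among them F13a1 (40.9 and 2.87 CPM), Folr2 (142 and 30.6 CPM) and Stab1 (404 and 185 CPM). Pf4, Clec4n, Cd163 and Mrc1 were lower there (Mrc1 at 233 and 245 CPM). The part of these markers in the member levels was not tested. All 11 immediate early genes, which tissue dissociation induces, were lower in sub-cluster 3, among them Jun at 191 and 1021 CPM, Egr1 at 262 and 1242 CPM and Fos at 248 and 724 CPM in sub-clusters 3 and 1. Sub-cluster 3 made up 18.6%, 26.5% and 4.76% of wild-type microglia (18, 13 and 1 cells), against 38.9% and 25% of those in the knockout (14 and 3 cells), which overlap. The depth of sub-cluster 3 was higher, and the part of depth and of the immediate early genes in these levels was not tested.

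**Figure D3:**
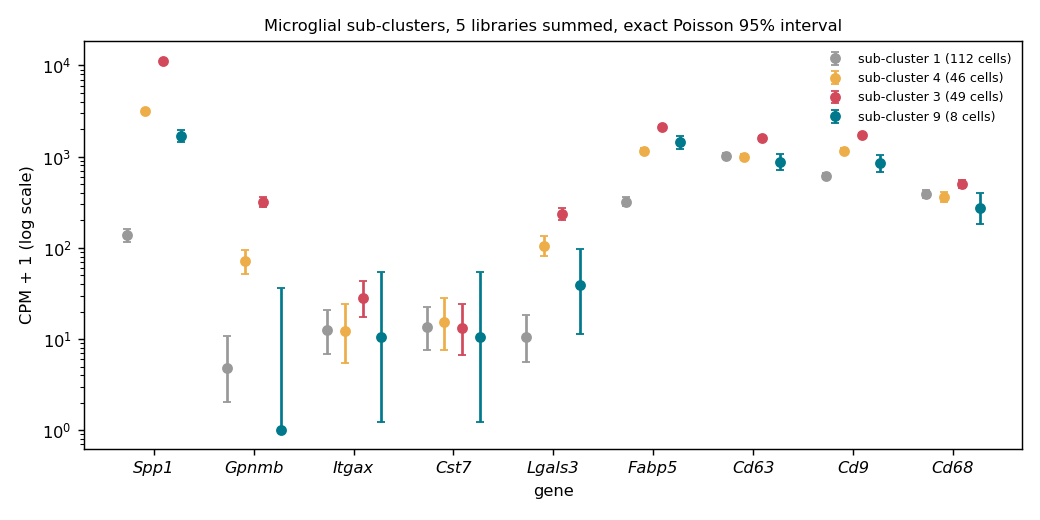
Members in the 4 microglial sub-clusters, 5 libraries summed (CPM + 1, log scale), with exact Poisson 95% intervals that cover counting error only. Sub-cluster 3 is highest for Spp1 (11249 CPM) and Gpnmb (320 CPM), and the intervals of Cst7 overlap in all 4.

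The genotype comparison asked whether loss of Trem2 went with different member levels in microglia. None of the 8 members tested passed after adjustment over 6621 genes, where 2 genes (0.0302%) passed, Trem2 and the chemokine Cxcl10 (log2 fold change -4.00), both lower, and 310 genes had an unadjusted p under 0.05. DESeq2 passed 3 genes. Cst7 fell below the fit's filter on low counts and was not tested. For 3 of the 8 members tested (Spp1, Fabp5 and Cd9) both knockout libraries lay above every wild-type library, where 8.49% of the genes tested did so, and none lay below, where 12.9% of them did. The untested Cst7 also lay above, at low counts. The libraries pool 2 pups each, so the p-values measure the spread between pools.

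Spp1, the osteopontin ligand, was at 1957, 4302 and 2429.8 CPM in wild-type microglia and 8484 and 6794 CPM in knockout microglia. The groups did not overlap, and wild-type replicate 2 was nearest to the knockout. The means were 2896 ± 1241 CPM (SD, n = 3) and 7639 ± 1195 CPM (SD, n = 2), a log2 fold change of 1.44 (SE 0.31, 95% interval 0.46 to 2.42, rank 4 of 6621 genes by p, adjusted p = 1.0 by edgeR). With the highest Spp1 cell of each library left out, the levels were 1472, 3377 and 23.0 CPM in the wild type and 6357 and 994 CPM in the knockout. The groups then overlapped, and the log2 fold change was 1.17 with an SE of 0.98. With DESeq2 the adjusted p was 0.0231, without wild-type replicate 2 edgeR gave 1.90 (adjusted p = 0.0199), and without knockout replicate 3 it gave 1.61 (adjusted p = 0.00474). The last fit has 1 knockout library, which is assumed to vary as the wild-type libraries do. With the replicate block the fold change was 1.29 (adjusted p = 0.0381 by edgeR). Only replicates 2 and 3 exist in both genotypes, so that fit compares the genotypes within those replicate numbers alone. Wild-type replicate 1 adds nothing to its fold change. At a mitochondrial limit of 5%, which left 1 cell of knockout replicate 3, the fold change reversed to -0.39.

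Fabp5, the fatty acid carrier, was at 964, 863 and 555 CPM in wild-type and 1712 and 1549 CPM in knockout microglia. The knockout libraries were above every wild-type library, at 1631 ± 115 CPM (n = 2) against 794 ± 213 CPM (n = 3). In knockout replicate 3, 1 cell held 54.5% of the Fabp5 UMIs. With the highest Fabp5 cell of each library left out, the levels were 858.3, 711 and 421 CPM against 1371 and 861.1 CPM. The lower knockout library was then level with wild-type replicate 1. Over all microglia the fitted log2 fold change stood at 1.06 (95% interval 0.24 to 1.89, SE 0.26, adjusted p = 1.0 by edgeR) and at 0.76 without the highest Spp1 cells. Fabp5 is also abundant in radial glia, whose marker genes summed to 267, 224 and 1083 CPM in wild-type microglia and 183 and 999 CPM in knockout microglia. Those markers were highest in replicate 3 of both genotypes, and their part in the Fabp5 values was not tested. After thinning, Fabp5 was found in 35.1%, 38.8% and 38.1% of microglia without the deletion, against 55.6% and 41.7% with it. The groups overlapped when cells were thinned to 2000 UMIs (48.5%, 58.3% and 55% against 55.6% and 58.3%) and without thinning (85.6%, 98.0% and 76.2% against 91.7% and 75%).

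Cd9, a tetraspanin, was at 914, 1052 and 845 CPM in wild-type and 1538 and 1131 CPM in knockout microglia, without overlap (log2 fold change 0.56, SE 0.23, adjusted p = 1.0 by edgeR). With the highest Cd9 cell of each library left out, it was at 878, 975 and 658 CPM against 1423 and 757 CPM. The groups then overlapped. In knockout replicate 3 that 1 cell held 45.2% of the Cd9 UMIs. Gpnmb was at 61.6, 111 and 66.0 CPM against 251 and 38.7 CPM, where knockout replicate 2 was highest and knockout replicate 3 lowest of all. The fitted change was 1.10 in log2 units (SE 0.50), 1.67 without knockout replicate 3 (adjusted p = 0.00348 by edgeR) and -1.08 without knockout replicate 2, fits in which the wild type alone gives the spread. Lgals3 was at 48.3, 143 and 92.4 CPM against 147 and 116 CPM, with overlap (0.58, SE 0.43). Without the highest Spp1 cells the log2 fold change of Lgals3 was 0.00. In wild-type replicate 3 all its UMIs came from 1 cell, and in knockout replicate 3 14 of 15 did (93.3%), with 9.46 CPM left without that cell.

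Cd63 was at 1029, 1236 and 984 CPM in wild-type and 1502 and 961 CPM in knockout microglia (log2 fold change 0.25, SE 0.25). Cd68 was at 447, 399 and 370 CPM against 374 and 325 CPM (log2 fold change -0.16, SE 0.24, 95% interval -0.92 to 0.60). Both overlapped between genotypes. Itgax was at 19.9, 10.7 and 0 CPM against 15.4 and 31.0 CPM (0.60, SE 0.82), from 40 UMIs in all. Cst7 was at 13.3, 9.14 and 13.2 CPM against 15.4 and 15.5 CPM, from 32 UMIs. Over the 8 members tested, 7 fold changes were above 0 and 1 below, with a median of 0.59 against 0.01 over all genes.

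**Figure D4:**
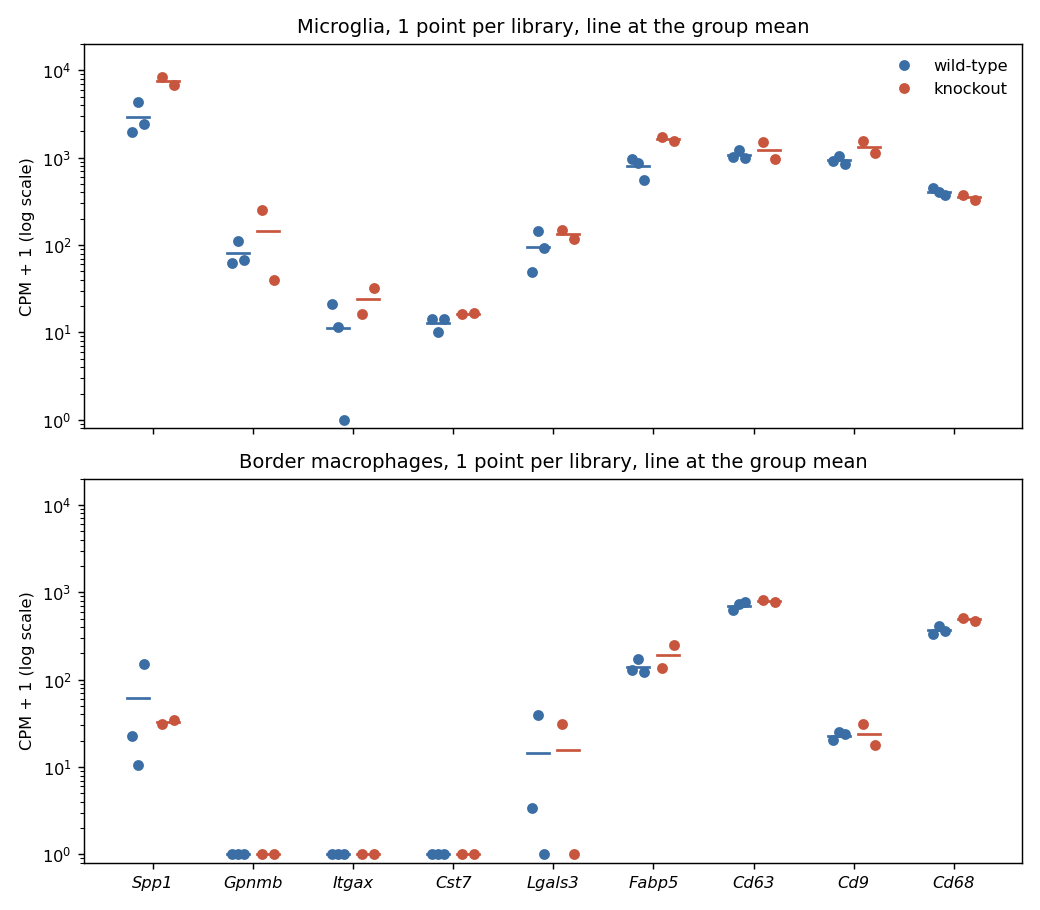
Level of each member by library (CPM + 1, log scale) in microglia above and border macrophages below, 1 point per library with a line at the group mean. In microglia Spp1, Fabp5, Cd9 and Cst7 lie higher in both knockout libraries, and in border macrophages Cd63 and Cd68 do.

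**Figure D5:**
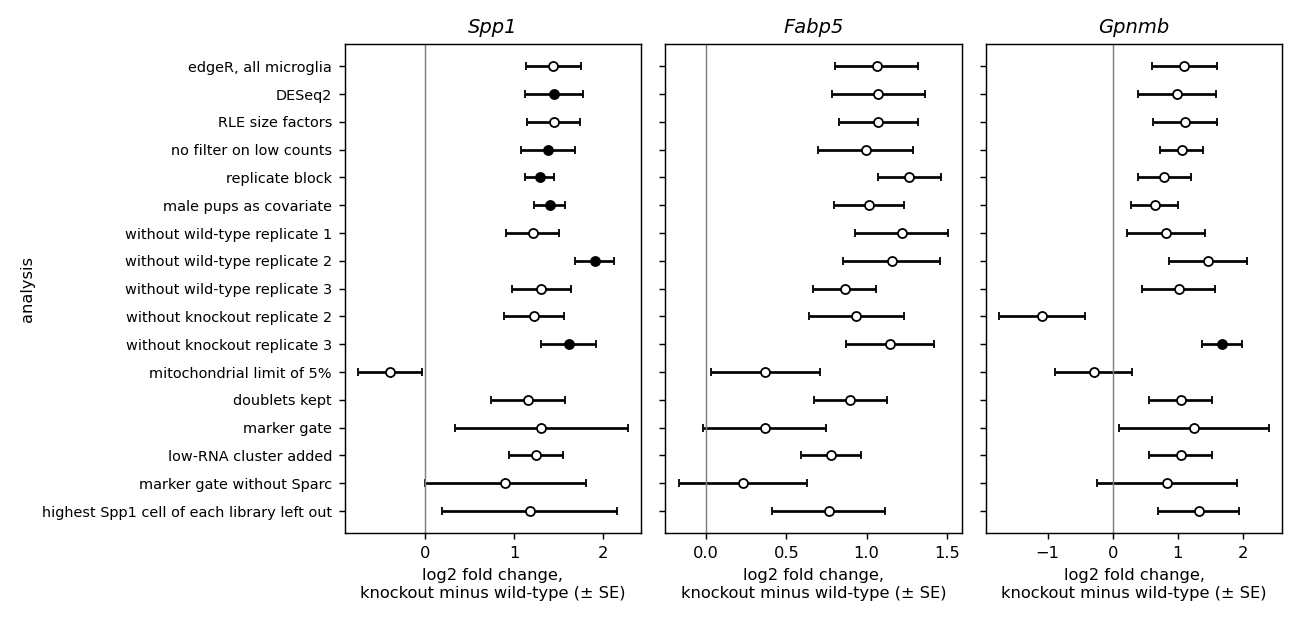
Log2 fold change (knockout minus wild type, bars ± SE) of Spp1, Fabp5 and Gpnmb in microglia under each processing alternative, filled where the adjusted p was under 0.05. Spp1 runs from -0.39 at the 5% mitochondrial limit to 1.90 without wild-type replicate 2, and Fabp5 stays above 0 throughout.

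The share of microglia with Spp1 after thinning was 20.6%, 32.7% and 9.52% in the wild type and 38.9% and 25% in the knockout, which overlapped (exact two-sided permutation p = 0.4). This design cannot go below 0.1, and of 18 such shares, 9 members in 2 macrophage classes, none had an adjusted p under 0.8. The members together took up 0.545%, 0.813% and 0.535% of microglial UMIs in the wild type and 1.40% and 1.10% in the knockout. For the median cell the shares overlapped, at 0.251%, 0.355% and 0.203% against 0.452% and 0.309%.

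In border macrophages none of the 3 members tested passed, where 1 of 3877 genes (0.0258%), Trem2, did and 122 genes had an unadjusted p under 0.05. Cd63 was at 619, 725 and 770 CPM in the wild type and 806 and 783 CPM in the knockout (log2 fold change 0.17, SE 0.26), and Cd68 at 331, 413 and 362 CPM against 509 and 466 CPM (0.41, SE 0.26, adjusted p = 1.0 by edgeR). Both lay above every wild-type library, as 9.85% of genes did, and no member at 20 CPM or more lay below, where 10.2% of genes did. Fabp5 overlapped, at 127, 173 and 121 CPM against 136 and 250 CPM (0.27, SE 0.33). Spp1 was at 21.6, 9.60 and 151 CPM against 29.7 and 33.3 CPM, and the value of wild-type replicate 3 came from 20 UMIs in 1 cell.

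In the low-RNA microglial cluster Fabp5 was at 1889, 1901 and 1355 CPM against 1332 and 985 CPM, lower in both knockout libraries, the opposite order to microglia. Spp1 there was at 16.4, 3358 and 634 CPM against 312 and 999 CPM, which overlapped, and the 13 cells with the most Spp1 held 98.2% of its UMIs. This cluster was not tested on its own, and the share of all its genes that separated the genotypes was not computed.

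The genotype effect in microglia was compared with that in border macrophages, both classes of a library being fitted together. The log2 fold change of Spp1 differed by 2.15 (SE 0.86) and that of Fabp5 by 0.78 (SE 0.36), and neither passed over 4656 genes, where 2 (0.043%) did (adjusted p = 1.0 for both by edgeR). Against radial glia and astrocytes, Fabp5 differed by 1.21 (SE 0.19, adjusted p = 0.255 by edgeR), with 0% of genes called there and 291 at an unadjusted p under 0.05. In radial glia and astrocytes themselves Fabp5 was at 4412, 4381 and 3513 CPM against 3640 and 4030 CPM (-0.12, SE 0.15), with 0% of 13789 genes called, 280 at an unadjusted p under 0.05 and 0 by DESeq2. No member at 20 CPM or more separated the genotypes there, where 9.46% of genes lay above and 6.11% below. In oligodendrocyte precursors Fabp5 was at 0.02 (SE 0.15), 0% of 10463 genes passed, 354 had an unadjusted p under 0.05, 0 passed with DESeq2, and no member at that level separated either (9.45% of genes above, 9.85% below).

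Outside the macrophages no member passed the test, and in several classes the libraries of the 2 genotypes did not overlap for a member. In endothelial cells Cd9 was at 77.8, 135 and 73.7 CPM in the wild type and 63.2 and 54.7 CPM in the knockout, below every wild-type library as 9.02% of genes were there (log2 fold change -0.72, SE 0.28, adjusted p = 0.99 by edgeR). With the replicate number as a block, which compares the genotypes only within the numbers both have, it passed (-0.78, adjusted p = 0.00583 by edgeR). Endothelial Fabp5 also passed in that fit (-0.84, adjusted p = 0.015 by edgeR), and 270 genes were called in place of 0. No member at 20 CPM or more lay above, where 9.51% of genes did. Of 11429 genes 0% passed in that class, 513 had an unadjusted p under 0.05 and DESeq2 passed 13. Endothelial Fabp5 was at 221, 609 and 197 CPM against 233 and 169 CPM (-0.80, SE 0.44), and wild-type replicate 2 alone was high, since without it the change was -0.05. In ependymal cells Lgals3 was at 184, 184 and 190 CPM against 218 and 264 CPM, higher in both knockout libraries, and Fabp5 at 752, 679 and 747 CPM against 517 and 602 CPM, lower in both. Ependymal cells were not among the classes tested. In excitatory neurons Fabp5 was at 2330, 2329 and 2179 CPM against 2455 and 2406 CPM, above every wild-type library as 6.86% of genes were (0.12, SE 0.07), and Cd63 averaged 92.5 against 86.4 CPM, below as 12% of genes were. There 0% of 15241 genes passed, 526 had an unadjusted p under 0.05 and DESeq2 passed 1. Choroid plexus Cd9 was at 778, 856 and 822 CPM against 989.7 and 1189.8 CPM, higher in both knockout libraries, and fibroblast Cd63 at 1189.6, 1407 and 1188 CPM against 1455 and 1469 CPM, also higher in both. Neither class was tested. Intermediate progenitors, also not tested, had Fabp5 at 2370, 2303 and 2293 CPM against 2416 and 2407 CPM. Their Cd63 was at 506, 498 and 545 CPM against 554 and 577 CPM, and both genes were higher in both knockout libraries. Not every such class is listed in this paragraph. In the ependymal, choroid plexus, fibroblast and intermediate progenitor classes the share of all genes that separated in this way was not computed.

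Of the companion lists, no gene passed in microglia in either direction. Of the companion genes of the developmental state (proliferative-region and axon-tract microglia), 22 of 25 were tested, 14 above 0 and 8 below, with a median of 0.19. Apoe, the lipid carrier, averaged 11988 CPM in wild-type and 9087 CPM in knockout microglia, Ctsd 4876 and 4822 CPM, Ctsl 3744 and 4301 CPM and Ctsb 3642 and 3305 CPM. Of the phagolysosome list 3 of 16 had fold changes above 0 and 13 below (median -0.17). The vacuolar ATPase subunit Atp6v0d2 had the largest change there (4.26, from 0.82 to 24.2 CPM, SE 1.23, adjusted p = 1.0 by edgeR), and Laptm5 was at -0.49. All 13 homeostatic genes had fold changes below 0 (median -0.33), among them P2ry12 (-0.63) and Cx3cr1 (-0.47). Fabp3, a relative of Fabp5, was at 0.71 and Cst3, a relative of Cst7, at -0.16.

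All 11 immediate early genes that tissue dissociation induces had fold changes below 0 in knockout microglia (median -0.71, Fos -0.85), as did all 8 division genes (median -0.64, Mki67 -0.98). Their part in the member values was not tested. Median mitochondrial shares in microglia were 5.67%, 6.20% and 3.91% in the wild type and 5.52% and 6.16% in the knockout. Median depth was 10084, 13177 and 6393 UMIs per cell against 13797 and 9525.

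Over 13 classes, the genes most like Spp1 in their mean level were Calhm6 (Pearson r = 0.998), Tnni2 (0.996) and Hvcn1 (0.982), out of 11799 genes on log2(CPM + 10). Among those most like Gpnmb were Spint1 (0.999) and Gm2629 (0.997), and those most like Cd68 were Tlr2 (0.999), Ltc4s (0.998) and Fcer1g (0.998). Cd9 was most like Phgdh (0.931), Psat1 (0.912) and Adgrg1 (0.851), Lgals3 like Tmem52 (0.963), Batf3 (0.938) and Tmem38b (0.922), Cd63 like Smim20 (0.931), Prorsd1 (0.917) and Gabpb2 (0.873), and Fabp5 like Cops5 (0.854), Gm5914 (0.844) and Nt5m (0.842). Itgax and Cst7 were below the minimum level of 20 CPM for this comparison. Classes share libraries, and a gene found only in macrophages correlates with any other such gene.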

How the data were processed

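Droplet libraries (single cell 3' v3.1) were analysed from UMI counts as the authors deposited them, whole numbers that were not normalised. Cell Ranger 6.1 and mm10 are named in the submitters' processing notes, and 6.1.1 per the file headers. Barcodes below 500 genes or 1000 UMIs, or above 15% mitochondrial UMIs, were dropped. Scrublet removed doublets (scanpy 1.11.5), by expected rate where its threshold marked under 0.5%. Clusters (leidenalg 0.10.2, 2000 variable genes, 30 components, resolution 1) left out the members, Trem2 and sex-linked genes. Sums of counts over the cells of a class in each library entered edgeR 4.0.16 (TMM, filter on low counts, genotype term, 3 residual degrees of freedom, R 4.3.3), adjusted by Benjamini-Hochberg at 0.05. DESeq2 1.42.0 was an alternative. Shares of single values used exact permutation over 10 assignments. Genes were named as the 10 members, Trem2, up to 4 of each companion list by wild-type level and by p, and the 3 genes most like each member, of which 1 is not reported here. The members and lists were chosen with earlier results of these data known. On simulated counts 72% of 200 genes changed 4-fold were recovered in microglia and 75% in border macrophages, with 8 and 2 false calls. The simulated spread was that typical of genes at each level. Recovery of smaller changes, or of genes held by few cells, was not measured. After each gene's genotype mean was subtracted, what remained correlated at 0.22 and 0.231 between same-numbered libraries in microglia, over only 2 pairs. With 2 knockout libraries the crossed pairs mirror these values by construction (-0.22 and -0.231), so they add nothing independent. Intervals on levels cover counting error only. Those on fold changes use edgeR's SE over libraries and 3 degrees of freedom.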

Additional observations from a re-analysis of the deposited data

Results flagged for a closer look

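Some member contrasts pointed one way in every library of one class and the opposite way in every library of another, as log2 ratios of group means. They were picked for this from 9 members in 14 classes. In classes that were not fitted, the share of all genes that separated the genotypes was not computed. Fabp5 was higher in knockout microglia (1.04) and lower in the knockout low-RNA microglial cluster (-0.57), a difference of 1.60. It was also lower in knockout ependymal cells (-0.38), a difference of 1.41 from microglia. Neither was tested directly. Cd63 was higher in knockout fibroblasts (0.21) and lower in knockout inhibitory neurons (-0.29), a difference of 0.50 that was not tested. Cd9 was higher in knockout microglia (0.51) and lower in knockout endothelial cells (-0.69), a difference of 1.20. Fitted over both classes of each library together, the last difference was 1.20 (SE 0.28, adjusted p = 0.874 by edgeR). Cd9 was also higher in knockout choroid plexus epithelium (0.41) than wild type, a difference of 1.11 from endothelial cells that was not tested.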

How the results depend on the processing

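Of the member fold changes, 199 values under alternatives kept direction and side of the threshold, 11 moved past it and 13 reversed. At a mitochondrial limit of 5%, Spp1 (-0.39), Gpnmb (-0.29) and Lgals3 (-1.34) reversed in microglia and Fabp5 in oligodendrocyte precursors (-0.24). With 1 library left out, Gpnmb ran from -1.08 (without knockout replicate 2) to 1.67 and Cd63 from -0.18 to 0.54 in microglia, Fabp5 from -0.024 to 0.74 in border macrophages and from -0.068 to 0.11 in oligodendrocyte precursors, and Cd63 from -0.43 to 0.25 in endothelial cells, where it was 0.033 lacking knockout replicate 3. With doublets kept Fabp5 in oligodendrocyte precursors was -0.0073. A gate on markers per cell in place of clusters gave -0.31 for Fabp5 in border macrophages, and the gate without Sparc, chosen after seeing the data like the removal of the highest Spp1 cells, gave -0.034 for Cd63 in microglia. Spp1 in microglia passed without a low-count filter (1.38) and when male pups were a covariate (1.40). Gene counts in microglia (2) were 42 with no filter, 15 at the 5% limit, 0 under either gate and 2 to 125 with 1 library left out, of which 125 came from leaving out knockout replicate 2 and 10 from knockout replicate 3. In border macrophages (1) they were 3 with no filter, 13 with the replicate block, 0 at 5% and 0 to 3. No filter and the replicate block gave 22 and 14 in radial glia and astrocytes (0), and 3 and 19 in oligodendrocyte precursors (0), with 0 to 2 when 1 library was left out. In endothelial cells (0) they gave 241 and 270, with 13 by DESeq2, 47 with male pups, 1 at 5% and 0 to 7. In excitatory neurons (0) they gave 51 and 37, with 1 by DESeq2, 1 with male pups and 0 to 2. With the replicate block Spp1 in microglia was 1.29 (adjusted p = 0.0381 by edgeR), and endothelial Fabp5 (-0.84, adjusted p = 0.015) and Cd9 (-0.78, adjusted p = 0.00583) passed. All fits with that block, and their gene counts, compare the genotypes within replicates 2 and 3 alone. The microglial gate with all markers took in 86 endothelial, 58 ependymal and 99 low-RNA cells beside 214 microglia. Without Sparc it took in 29 ependymal and 95 low-RNA cells beside 214 microglia. Values under either gate therefore mix cell classes. The members' share of UMIs in the cells taken as microglia was 0.237% and 0.445% under the 2 gates in the wild type (0.631% by clusters). In the knockout it was 0.401% and 0.629% (1.25% by clusters). With 1 library left out it ran from 0.540% to 0.679% and from 1.10% to 1.40%. The cause of these changes was not tested. The 12 microglia of knockout replicate 3 limit the precision.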
